A study of Mus musculus with 13 samples.

Results

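A set of 10 genes of the matrix that cells lay down around themselves was followed in epididymal fat and in prostate tumours of mice that lack the autophagy receptor p62 in adipocytes. They are the thrombospondins Thbs1, Thbs2, Thbs3 and Thbs4, the matricellular genes Sparc, Postn and Tnc, and the small leucine-rich proteoglycans Lum, Dcn and Bgn. They were picked by symbol, and all 10 were found among the 22615 gene symbols that the fat and tumour tables share. The set was put together with earlier results for these libraries in view, among them a high Thbs2 level in knockout fat. Differences of these genes between genotypes are therefore given as a description, and a count of calls over all genes shows only where they stand in each whole table.

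Every mouse carried the TRAMP transgene (TRAMP+), which drives a viral oncogene in prostate epithelium and gives prostate cancer. Their strain was C57BL/6, their age 30 to 35 weeks and their diet regular. The knockout group (TRAMP+;p62aP2KO) had lost p62, the product of Sqstm1, through the aP2 promoter, and the wild-type group (TRAMP+;p62f/f) kept an unrecombined floxed gene. The aP2 promoter is active in adipocytes and has also been reported to act in some other cell types, so it limits how far the model is confined to adipocytes. There were 3 knockout and 3 wild-type fat libraries, and 3 knockout and 4 wild-type tumour libraries. Whether every library stands for its own mouse is not given, so errors and p-values cover the spread between libraries alone, some of which may be technical.

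Matricellular proteins are secreted into the matrix but serve mainly as signals between matrix and cell. Thrombospondins bind cell receptors such as CD36, CD47 and integrins, and thrombospondin 1 can activate latent TGF-beta. Small leucine-rich proteoglycans bind collagen fibrils and set their thickness and spacing. In fat and in tumours these genes are known chiefly as products of fibroblasts and other stromal cells, and Sparc also as one of adipocytes and endothelium.

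Promoter sequences from RefSeq (GRCm38.p6), covering 250 bases before and 50 after the start of the gene, were found for 7 of the 10 genes. The table used holds none for Thbs1, Lum and Dcn. Those of Thbs2, which showed the widest gap in fat, of its relative Thbs3, whose groups overlapped in both tissues, and of Bgn, whose groups were apart in tumours, are shown 5′ to 3′. Capitals mark matches, on either strand, to TATAAA (the TATA box), TGANTCA (the AP-1 letters), GGGCGG (the GC box), CAGACA (a SMAD element) and TGACNNNGC (the core of an antioxidant response element).
Thbs2 promoter (chr17:14694213-14694512, minus strand): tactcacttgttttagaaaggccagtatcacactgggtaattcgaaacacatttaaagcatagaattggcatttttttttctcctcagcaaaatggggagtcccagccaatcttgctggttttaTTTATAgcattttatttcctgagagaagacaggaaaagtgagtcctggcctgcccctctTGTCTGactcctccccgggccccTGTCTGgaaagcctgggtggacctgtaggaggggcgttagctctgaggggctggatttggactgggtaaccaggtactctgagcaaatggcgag
Thbs3 promoter (chr3:89214930-89215229, plus strand): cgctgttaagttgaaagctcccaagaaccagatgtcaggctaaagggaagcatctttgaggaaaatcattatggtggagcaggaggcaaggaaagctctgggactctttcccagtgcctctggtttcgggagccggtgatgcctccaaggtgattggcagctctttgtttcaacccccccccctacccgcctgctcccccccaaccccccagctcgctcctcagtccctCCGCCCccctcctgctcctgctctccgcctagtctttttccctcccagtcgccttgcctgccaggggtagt
Bgn promoter (chrX:73483351-73483650, plus strand): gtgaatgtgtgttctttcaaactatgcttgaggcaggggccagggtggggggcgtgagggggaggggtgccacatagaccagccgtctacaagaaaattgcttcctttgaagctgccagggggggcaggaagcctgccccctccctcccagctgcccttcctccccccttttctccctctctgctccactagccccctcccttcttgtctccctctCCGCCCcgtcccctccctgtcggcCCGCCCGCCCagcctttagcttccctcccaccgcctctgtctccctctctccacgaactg
The Thbs2 window holds CAGACA, read on the other strand as TGTCTG, at positions -67 and -44 from the start (first base of the match as printed), and TATAAA on the other strand at -126. The Thbs3 window holds a GC box at -21, and the Bgn window GC boxes at -34, -10 and -6, the last pair overlapping. Over all 32851 promoters of this length, 21.0% hold CAGACA, 35.7% the GC box, 13.6% TATAAA, 7.81% the AP-1 letters and 12.4% the antioxidant core. Among the 7 genes, 4 hold CAGACA, 4 the GC box, 3 TATAAA, 1 the antioxidant core (Postn) and 0 the AP-1 letters. Postn and Tnc have more than 1 window each and so more chances of a match, while the shares are per window. These are matches of letters only.

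Fat values are FPKM, fragments scaled to gene length and library size, as the deposited numbers were read. Tumour values are CPM, counts scaled to library size with TMM factors and not to gene length, made from 17810397 to 32475051 counts per library. In fat the value of 1 read could be compared between libraries from low genes, and 1 read was worth 0.363 times as much in knockout 2 as in knockout 1, against 0.901 to 1.19 times in the other libraries, so knockout 2 was read most deeply. Sqstm1 itself went against the labels in the libraries numbered 2. It stood at 4.53, 54.5 and 2.58 FPKM in knockout fat 1 to 3, against 73.6, 1.77 and 84.3 FPKM in wild-type fat 1 to 3. In tumours it stood at 8.97, 176 and 19.5 CPM in knockout 1 to 3, against 173, 5.65, 167 and 151 CPM in wild type 1 to 4. Knockout and wild type below mean libraries so labelled, and the main fold changes are also given with both libraries numbered 2 left out. Of the tissue markers, mature adipocyte genes summed to 10627 to 18864 FPKM in knockout fat and 19174 to 26937 FPKM in wild-type fat. The 8 prostate luminal genes summed to 30.4 to 65.7 FPKM in knockout fat and 12.4 to 92.4 FPKM in wild-type fat, with Pbsn alone among them listed at 0 throughout, and to 2157 to 4854 CPM in knockout tumours and 2534 to 13868 CPM in wild-type tumours.

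In fat, the thrombospondins Thbs1 and Thbs2 were higher in every knockout library than in every wild-type library. Thbs2, an inhibitor of blood vessel growth that also limits matrix protease activity, lies at chr17:14665500-14694235 (mm10, minus strand). It stood at 82.9, 34.5 and 129 FPKM in knockout 1 to 3, against 7.25, 12.5 and 6.07 FPKM in wild type 1 to 3. The lowest knockout library was thus above the highest wild-type library, and both libraries nearest to the gap were those numbered 2. The mean was 82.2 ± 47.4 FPKM in knockout and 8.60 ± 3.42 FPKM in wild type (SD, n = 3 each), a log2 fold change of 2.98 (SE 0.49) on the log2(FPKM + 1) scale. Without the libraries numbered 2 it was 3.78, and with any 1 library left out it lay between 2.56 and 3.50.

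Thbs1, the best known activator of latent TGF-beta among the thrombospondins, lies at chr2:118111876-118127133 (plus strand). It stood at 63.8, 110.1 and 76.8 FPKM in knockout fat 1 to 3, against 18.3, 52.2 and 20.8 FPKM in wild-type fat 1 to 3. The groups did not overlap, and the libraries numbered 2 were the highest of their own groups. The log2 fold change was 1.55 (SE 0.43), and 1.79 without the libraries numbered 2.

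Thbs3 and Thbs4, which belong to the thrombospondins that assemble as pentamers, showed no such separation in fat. Thbs3 (chr3:89215180-89226837) stood at 11.9, 25.4 and 8.35 FPKM in knockout 1 to 3, against 14.0, 11.1 and 8.24 FPKM in wild type 1 to 3. Its log2 fold change of 0.31 (SE 0.40) came from knockout 2 and was -0.10 without the libraries numbered 2. Thbs4 (chr13:92751590-92794818), a gene of tendon, muscle and nerve, was close to the limit of the data. The smallest whole reads that give its FPKM values are 10, 95 and 3 in knockout 1 to 3, against 5, 1 and 0 in wild type 1 to 3. At 0.590, 2.03 and 0.211 FPKM in knockout 1 to 3, against 0.306, 0.0531 and 0 FPKM in wild type 1 to 3, it was the member left out of the fit, which asked for a mean of at least 1 FPKM. A count of 0 in wild type 3 allows up to 3 reads, or 0.178 FPKM, by counting error alone.

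**Figure D1:**
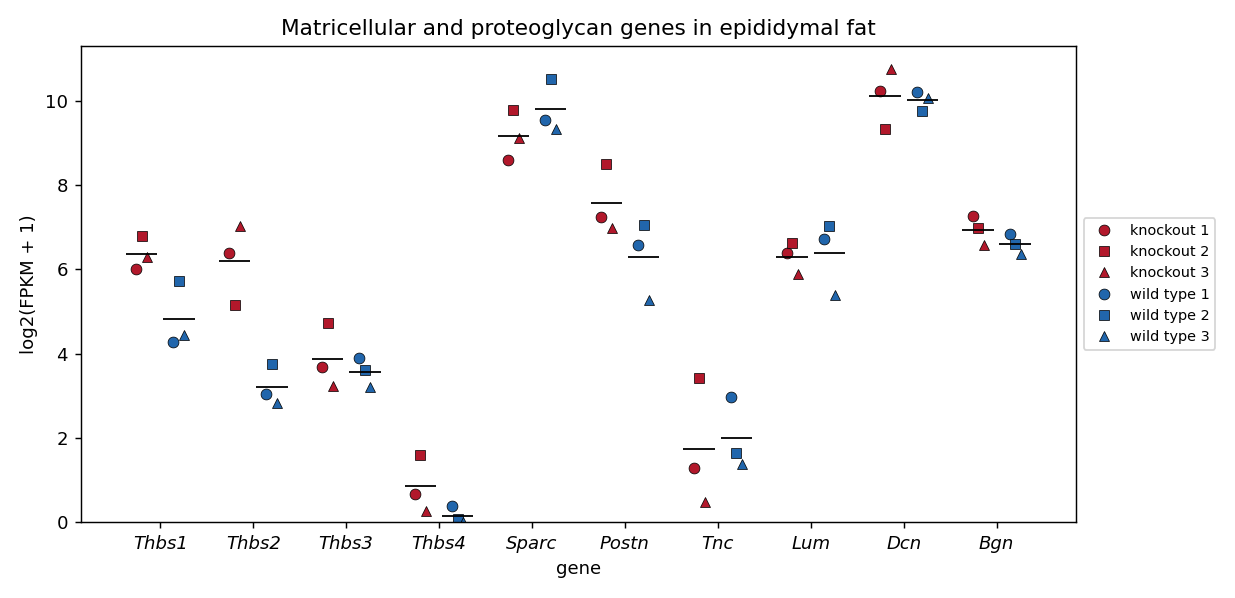
Level of each gene in each fat library as log2(FPKM + 1), with 3 knockout libraries in red left of 3 wild-type libraries in blue, marker shape for the library number and a line at the group mean. Thbs1 and Thbs2 are the genes whose red and blue points do not overlap, and Thbs4 lies near 0.

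Among the matricellular genes of fat, Postn, for periostin, which promotes collagen crosslinking, leaned the same way with overlap. It stood at 151, 361 and 125 FPKM in knockout 1 to 3, against 94.6, 133 and 37.5 FPKM in wild type 1 to 3. Wild type 2 lay above knockout 3, and the log2 fold change was 1.27 (SE 0.57), or 1.19 without the libraries numbered 2. Sparc (osteonectin), a collagen-binding glycoprotein that restrains adipocyte differentiation in mouse, leaned the other way, at 383, 870.1 and 553 FPKM in knockout 1 to 3, against 748, 1464 and 642 FPKM in wild type 1 to 3. Its groups overlapped through knockout 2, and its log2 fold change was -0.64 (SE 0.47), or -0.59 without the libraries numbered 2. Tnc, for tenascin C, a protein of injured and remodelling tissue, was low and uneven, at 1.44, 9.63 and 0.397 FPKM in knockout 1 to 3, against 6.89, 2.10 and 1.63 FPKM in wild type 1 to 3. In whole reads these values are 56, 1035 and 13 for the knockout libraries, against 259, 91 and 63 for the wild-type libraries, so knockout 3 had the fewest reads of Tnc and knockout 2, the deepest library, by far the most. Its log2 fold change was -0.28 (SE 0.78), and -1.30 without the libraries numbered 2.

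The proteoglycans of fat overlapped between the groups. Dcn, for decorin, which binds collagen fibrils and TGF-beta, had the highest mean of the 10 genes in both fat groups, at 1204, 646 and 1733 FPKM in knockout 1 to 3, against 1176, 865 and 1067 FPKM in wild type 1 to 3. The knockout libraries held both the highest and the lowest value, and in the libraries numbered 2 Sparc stood above Dcn. Lum, for lumican, which carries keratan sulfate in cornea, stood at 82.6, 97.1 and 58.6 FPKM in knockout 1 to 3, against 105, 129 and 40.7 FPKM in wild type 1 to 3. Bgn, for biglycan, which can also signal through Toll-like receptors, stood at 153, 125 and 94.7 FPKM in knockout 1 to 3, against 113, 95.5 and 81.2 FPKM in wild type 1 to 3. Their log2 fold changes were 0.10 (SE 0.45) for Dcn, -0.08 (SE 0.45) for Lum and 0.34 (SE 0.28) for Bgn. Without the libraries numbered 2 they were 0.37 for Dcn, 0.088 for Lum and 0.32 for Bgn.

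In the fit over all 13617 fat genes, limma called 0 of the 9 members tested, against 0.00734% of all genes. The smallest adjusted p among them was 0.137, and 2 of the 9, Thbs1 and Thbs2, were higher at an unadjusted p under 0.05, against 6.88% of all genes in that direction. At that level 0 members were lower, against 8.14% of all genes. A positive fold change was found for 6 of the 9, against 50.5% of all genes. Groups that did not overlap with knockout above were found in 2 of the 10, against 9.87% of all genes tested, and with knockout below in 0, against 11.3%. The median log2 fold change of the 9 was 0.31, beside 0.0065 for all genes.

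In tumours, 9 of the 10 genes had a positive log2 fold change, and Thbs1, Thbs2, Lum and Bgn were higher in every knockout library than in every wild-type library. Thbs1 stood at 238, 390.5 and 265 CPM in knockout 1 to 3, against 59.9, 108, 71.9 and 137 CPM in wild type 1 to 4. The mean was 298 ± 81.4 CPM in knockout (SD, n = 3) and 94.0 ± 34.9 CPM in wild type (SD, n = 4). Its log2 fold change was 1.66 (SE 0.34), and 1.50 without the libraries numbered 2. Thbs2 stood at 39.9, 46.3 and 36.6 CPM in knockout 1 to 3, against 11.8, 17.3, 14.4 and 27.7 CPM in wild type 1 to 4. Its knockout libraries lay close together and wild type 4 was nearest to them. The log2 fold change was 1.20 (SE 0.32), and 1.09 without the libraries numbered 2.

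Thbs3 was low, at 13.1, 22.3 and 7.83 CPM in knockout 1 to 3, against 8.0, 5.06, 3.04 and 6.93 CPM in wild type 1 to 4. Knockout 3 lay just under wild type 1, so the groups touched, and the log2 fold change was 1.32 (SE 0.49), and 0.81 without the libraries numbered 2. Thbs4 went its own way: it counted 128, 330 and 40 reads in knockout 1 to 3, against 1661, 29, 7 and 21 reads in wild type 1 to 4. The knockout tumours thus had 6.45, 9.58 and 1.69 CPM, and the wild-type tumours 88.5, 1.21, 0.495 and 1.00 CPM. Wild type 1 alone was high, and all 3 knockout tumours lay above the other 3 wild-type tumours. The log2 fold change was -1.95 (SE 1.78) with all libraries, -2.88 without the libraries numbered 2 and 2.69 without wild type 1. That same tumour held summed neuroendocrine markers of 1362 CPM, against 48.7 to 64.7 CPM in the other wild-type tumours and 48.8 to 74.8 CPM in knockout tumours, and the part of these cells in the Thbs4 value was not tested.

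**Figure D2:**
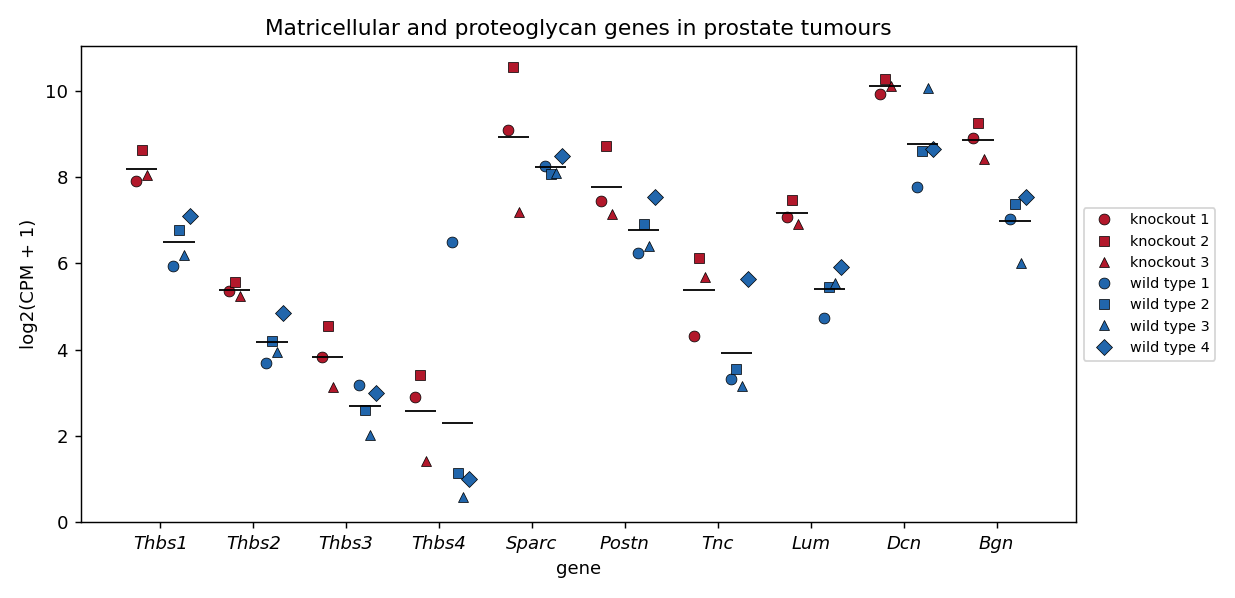
Level of each gene in each tumour library as log2(CPM + 1), with 3 knockout libraries in red left of 4 wild-type libraries in blue, marker shape for the library number and a line at the group mean. The groups are apart for Thbs1, Thbs2, Lum and Bgn, and a single wild-type tumour stands at 88.5 CPM for Thbs4.

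The matricellular genes Sparc, Postn and Tnc overlapped in tumours, and knockout 2 was the highest library for each. Sparc (chr11:55394500-55423183) stood at 543, 1485 and 144 CPM in knockout 1 to 3, against 305, 266, 273 and 358 CPM in wild type 1 to 4. Knockout 2 was the highest and knockout 3 the lowest of the 7 libraries. The log2 fold change was 1.27 (SE 0.64) with all libraries, 0.20 without knockout 2 and 0.14 without the libraries numbered 2. Postn (chr3:54361109-54391037) stood at 172, 417 and 141 CPM in knockout 1 to 3, against 74.9, 120.1, 84.1 and 185 CPM in wild type 1 to 4. Its log2 fold change was 1.07 (SE 0.46), or 0.44 without knockout 2 and 0.45 without the libraries numbered 2. Tnc (chr4:63959785-64047015) stood at 18.7, 69.0 and 50.6 CPM in knockout 1 to 3, against 8.96, 10.7, 7.93 and 48.4 CPM in wild type 1 to 4. Wild type 4 was far above the other wild-type tumours, and the log2 fold change was 1.28 (SE 0.73), or 2.32 without wild type 4, 0.87 without knockout 2 and 0.68 without the libraries numbered 2.

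Of the proteoglycans, Lum (chr10:97565128-97572703, plus strand) stood at 134, 176 and 120 CPM in knockout 1 to 3, against 25.7, 42.9, 45.4 and 59.3 CPM in wild type 1 to 4. The lowest knockout tumour was above the highest wild-type tumour, with a log2 fold change of 1.73 (SE 0.30), and 1.55 without the libraries numbered 2. Bgn (chrX:73483602-73495933, plus strand) stood at 474, 604 and 339 CPM in knockout 1 to 3, against 130, 164, 62.9 and 184 CPM in wild type 1 to 4. Its groups were apart as well, with a log2 fold change of 1.81 (SE 0.39), and 1.70 without the libraries numbered 2. Dcn (chr10:97479609-97518143), which lies beside Lum on the same strand, stood at 973, 1233 and 1101 CPM in knockout 1 to 3, against 217, 384, 1059 and 402 CPM in wild type 1 to 4. Wild type 3 reached the knockout level and made the groups overlap. The log2 fold change was 1.10 (SE 0.51), or 0.89 without the libraries numbered 2 and 1.73 without wild type 3. In that library Lum and Bgn were at 45.4 and 62.9 CPM, so it was high in Dcn and not in its relatives.

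In the fit over all 15117 tumour genes, edgeR called 0 of the 10 members, against 0.0% of all genes (smallest adjusted p among the members 0.193). At an unadjusted p under 0.05 edgeR had 6 members higher, against 6.17% of all genes in that direction, and 0 lower, against 6.26%. Limma voom also called 0, against 0.0% of all genes. At the unadjusted level it had 6 higher and 0 lower, against 10.7% of all genes in both directions together. A positive fold change by edgeR was found for 9 of the 10, against 43.2% of all genes. DESeq2 called 4 members, against 5.16% of all genes, all higher, against 2.37% in that direction. They were Thbs1, Thbs2, Lum and Bgn, the same 4 genes whose groups did not overlap. On simulated tumour counts with known changes, 9.13% of the DESeq2 calls were false, against 4.33% for edgeR and 3.40% for voom. That simulation had large changes, the same dispersion for every gene and no outlying library. DESeq2, edgeR and voom called 219, 208 and 206 genes in it, but 780, 0 and 0 in these tumours. It therefore cannot tell how many of the DESeq2 calls made here are false. Groups apart with knockout above were found in 4 of 10, against 6.69% of all genes tested, and with knockout below in 0, against 7.05%. The median log2 fold change was 1.27, beside -0.075 for all genes. Knockout 2 was the highest library for 9 of the 10 genes, the exception being Thbs4. Knockout 1 stood apart in seminal vesicle and epididymis genes, whose sums were 47159, 28.0 and 226 CPM in knockout 1 to 3, against 257 to 3418 CPM in wild type. With any 1 tumour library left out, knockout 1 among them, the log2 fold change lay between 1.42 and 1.90 for Thbs1, 1.05 and 1.50 for Thbs2, 1.54 and 1.91 for Lum, and 1.58 and 2.02 for Bgn.

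**Figure D3:**
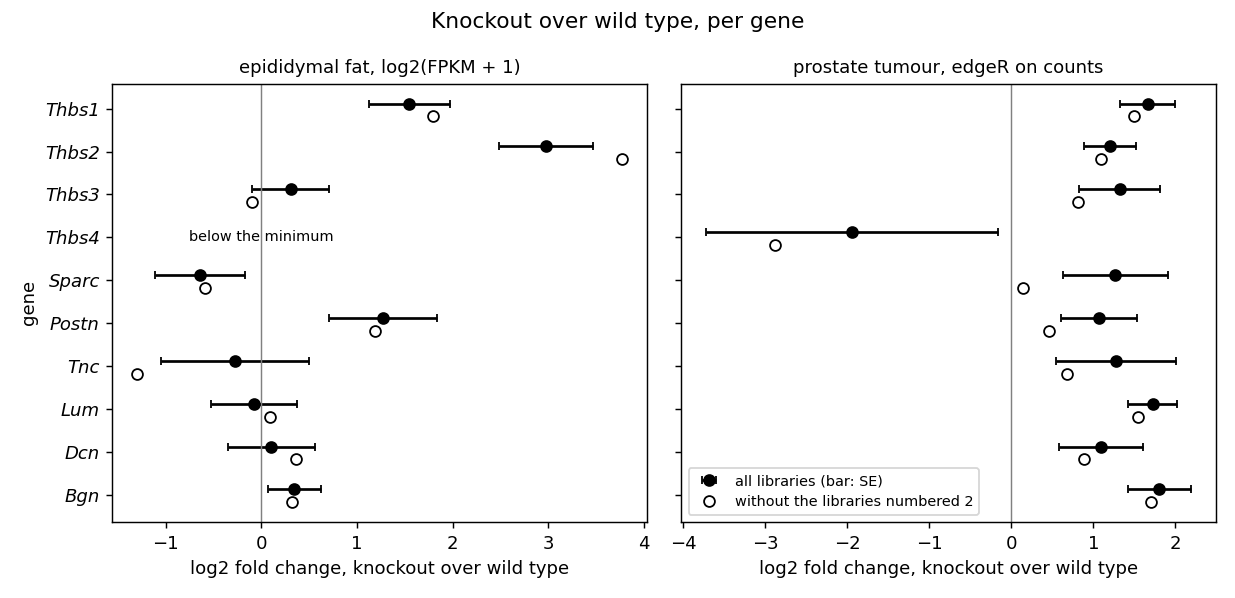
Log2 fold change of each gene, knockout over wild type, in fat (left, log2(FPKM + 1) scale) and tumours (right, edgeR), with the SE as a bar and an open circle for the value without the libraries numbered 2. Thbs2 has the highest value in fat at 2.98, and Sparc in tumours is at 1.27 with all libraries and at 0.14 without those numbered 2.

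Set side by side, Thbs1 had nearly the same log2 fold change in tumours and fat (1.66 and 1.55), while Thbs2 had 1.20 in tumours and 2.98 in fat, Lum 1.73 and -0.08, and Bgn 1.81 and 0.34. In a joint fit on log2 values the tumour effect minus the fat effect was -1.76 (SE 0.59) for Thbs2, 1.82 (SE 0.55) for Lum, 1.52 (SE 0.51) for Bgn and 0.15 (SE 0.55) for Thbs1. Of the 9 members in that fit limma called 0, against 0.0% of 12390 genes (smallest adjusted p 0.170). At an unadjusted p under 0.05 it had 2 higher and 1 lower, against 5.92% of all genes higher and 5.79% lower (11.7% together). The difference was positive for 7 of the 9, against 51.0% of all genes. The fat and tumour scales differ, so the sizes of these differences are approximate. The joint fit took fat and tumour libraries as independent. Whether they share mice is not given, so its SEs leave out any such pairing.

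The order of the genes by mean level, which can be compared only per length, was headed by Dcn and Sparc in every group. In knockout fat Dcn averaged 1194 ± 544 FPKM and Sparc 602 ± 247 FPKM, and in wild-type fat Dcn averaged 1036 ± 158 FPKM and Sparc 952 ± 447 FPKM (SD, n = 3 each), with overlapping ranges in both. Thbs2 stood sixth of the 10 in knockout fat, next to Thbs1 and Lum, and its range overlapped theirs. In wild-type fat Thbs2 stood eighth, next to Thbs3, and their ranges overlapped. In tumours, using exon lengths of GENCODE M21, Sparc averaged 191 ± 182 RPKM and Dcn 189 ± 22.3 RPKM in knockout (SD, n = 3), and in wild type Sparc averaged 79.3 ± 11.1 RPKM and Dcn 88.3 ± 63.6 RPKM (SD, n = 4). Next came Bgn, Lum, Thbs1 and Postn in both tumour groups, each overlapping its neighbour, with Bgn at 77.5 ± 21.7 RPKM in knockout and 22.1 ± 8.71 RPKM in wild type. This order of means did not hold in knockout tumour 3, where Sparc was at 38.1 RPKM, below Bgn at 55.6 RPKM and Lum at 48.9 RPKM. Thbs2 and Thbs3 were at 5.85 ± 0.71 and 2.98 ± 1.51 RPKM in knockout tumours, against 2.54 ± 0.99 and 1.19 ± 0.45 RPKM in wild-type tumours. The lengths used for tumours merge the exons of all transcripts of a gene. They can exceed the length of its main transcript, so the tumour RPKM values and their order are approximate.

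Genes that work with these proteins were taken from 7 lists. In fat none of the lists held a gene called by limma at an adjusted p under 0.05, against 0.00734% of all genes. In tumours none held one called by edgeR, against 0.0% of all genes. With so few calls over all genes, nothing about the lists can be read from this. Counts at an unadjusted p under 0.05 stand beside 6.88% of all genes higher and 8.14% lower in fat, and 6.17% higher and 6.26% lower in tumours, and nothing particular to a list is read from them. Positive fold changes, here and for the cell markers, stand beside 50.5% of all genes in fat and 43.2% in tumours. Other matricellular genes had a median log2 fold change of 0.52 in fat (18 tested, 4 higher and 1 lower at an unadjusted p under 0.05) and of 1.17 in tumours (22 tested, 10 higher and 1 lower). Cyr61, an immediate early matricellular gene, stood at 24.1 ± 9.01 FPKM in knockout fat and 8.60 ± 3.28 FPKM in wild-type fat (SD, n = 3 each). The osteopontin gene Spp1 had 1052, 99.9 and 18.3 FPKM in knockout fat 1 to 3, against 5.12, 18.3 and 6.39 FPKM in wild-type fat 1 to 3. In tumours Smoc2, a relative of Sparc, stood at 534 ± 109 CPM in knockout (SD, n = 3) and 208 ± 66.9 CPM in wild type (SD, n = 4).

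Other small leucine-rich proteoglycans leaned down in fat and up in tumours. In fat 8 of 9 tested had a negative log2 fold change, with a median of -0.64 and 2 lower at an unadjusted p under 0.05, while in tumours 8 of 11 had a positive one, with a median of 0.92 and 5 higher at that level. Ogn, for osteoglycin, stood at 49.7, 38.2 and 37.2 FPKM in knockout fat 1 to 3, against 88.1, 90.6 and 64.6 FPKM in wild-type fat 1 to 3, which do not overlap. In tumours Ogn stood at 76.8, 123 and 209 CPM in knockout 1 to 3, against 31.8, 77.2, 66.3 and 65.7 CPM in wild type 1 to 4. Prelp, a relative that anchors basement membranes to connective tissue, averaged 138 ± 13.6 CPM in knockout tumours (SD, n = 3) and 43.7 ± 26.0 CPM in wild-type tumours (SD, n = 4).

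Receptors had medians of 0.07 in fat (22 tested, 2 higher and 2 lower at an unadjusted p under 0.05) and 0.40 in tumours (23 tested, 5 higher and 0 lower). Lrp1, which takes up thrombospondins from the cell surface, averaged 142 ± 18.1 FPKM in knockout fat and 74.4 ± 13.8 FPKM in wild-type fat (SD, n = 3 each). Vldlr and Ddr1 of the same list were lower in knockout fat. Vldlr averaged 15.6 ± 2.37 FPKM in knockout and 28.2 ± 4.55 FPKM in wild type, and Ddr1 5.33 ± 2.54 and 12.9 ± 4.36 FPKM. Stab1, a scavenger receptor of Sparc found on macrophages and endothelium, stood at 89.4, 332 and 52.2 CPM in knockout tumours 1 to 3, against 41.2, 35.3, 8.56 and 34.0 CPM in wild-type tumours 1 to 4. The TGF-beta list had medians of -0.09 in fat (17 tested, 2 higher) and 0.72 in tumours (17 tested, 6 higher), with 0 lower in either at that level. Tgfb1, the ligand, averaged 12.2 ± 1.10 FPKM in knockout fat and 6.28 ± 1.71 FPKM in wild-type fat, and 21.4 ± 4.46 CPM in knockout tumours and 10.7 ± 2.65 CPM in wild-type tumours (SD, n = 3, 3, 3 and 4).

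Fibrillar collagens and their crosslinking enzymes had a median of -0.04 in fat (19 tested, 1 higher and 1 lower at an unadjusted p under 0.05) and 1.27 in tumours (20 tested, 9 higher and 0 lower). Col5a3, a minor fibrillar collagen, averaged 16.4 ± 10.4 FPKM in knockout fat and 42.9 ± 16.4 FPKM in wild-type fat (SD, n = 3 each). Loxl1, a crosslinking oxidase, stood at 22.2, 65.9 and 14.1 CPM in knockout tumours 1 to 3, against 7.20, 8.61, 4.81 and 14.0 CPM in wild-type tumours 1 to 4. Proteases and their inhibitors had medians of 0.58 in fat (15 tested, 5 higher and 1 lower) and 1.27 in tumours (15 tested, 8 higher and 0 lower). Mmp2, a gelatinase that thrombospondin 2 helps clear, averaged 70.4 ± 4.19 FPKM in knockout fat and 39.4 ± 12.6 FPKM in wild-type fat (SD, n = 3 each). Adamts5 of the same list was lower, at 46.4 ± 21.7 FPKM in knockout fat and 101 ± 24.0 FPKM in wild-type fat (SD, n = 3 each). Adamts1, a protease with thrombospondin repeats, averaged 57.5 ± 34.8 CPM in knockout tumours (SD, n = 3) and 12.3 ± 4.10 CPM in wild-type tumours (SD, n = 4). Enzymes that build the glycan chains had medians of -0.04 in fat (22 tested, 2 higher and 2 lower) and 0.12 in tumours (24 tested, 1 higher and 0 lower).

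**Figure D4:**
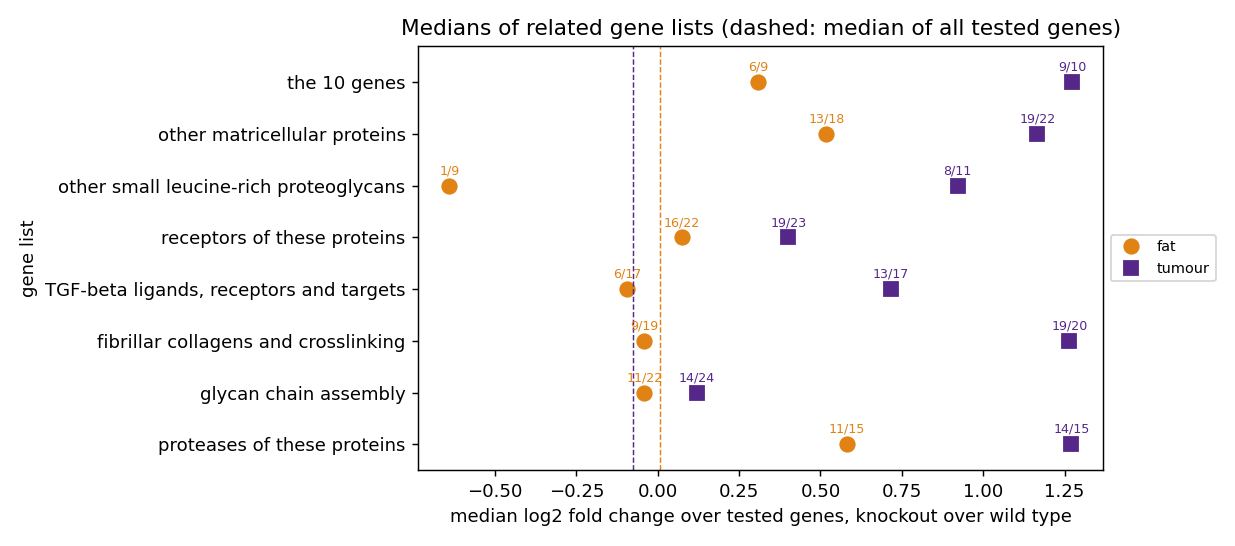
Median log2 fold change of the tested genes of each list, knockout over wild type, in fat (circles) and tumours (squares), with the number of positive genes over the number tested and a dashed line at the median of all tested genes. The other small leucine-rich proteoglycans lie at -0.64 in fat and 0.92 in tumours, and the glycan enzymes stay near all genes in both.

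Markers of stromal, blood and dividing cells were summed in each library. In bulk tissue, more cells of a type and more RNA per cell cannot be told apart. In fat the 15 fibroblast markers had a median log2 fold change of -0.16, 5 of 15 were positive, and their sum was 3783 to 4322 FPKM in knockout, against 3980 to 4764 FPKM in wild type. Macrophage markers were positive in 10 of 10, with sums of 3049 to 7634 FPKM in knockout, against 974 to 3647 FPKM in wild type. The 3 blood genes tested were all positive, with sums of 3860, 541 and 2983 FPKM in knockout 1 to 3, against 481 to 593 FPKM in wild type. Knockout 1 and 3 were high in blood genes and knockout 2 was not, and the same libraries were the higher ones for Thbs2. Cell cycle markers were positive in 9 of 9, with sums of 159, 181 and 22.5 FPKM in knockout 1 to 3, against 15.8 to 53.1 FPKM in wild type. Pericyte and smooth muscle markers were positive in 3 of 10, with sums of 148 to 234 FPKM in knockout, against 246 to 348 FPKM in wild type. Platelet genes, since platelets store thrombospondin 1, summed to 224, 72.2 and 69.8 FPKM in knockout fat 1 to 3, against 75.7, 69.0 and 42.3 FPKM in wild-type fat 1 to 3. The part of macrophages, blood, platelets and dividing cells in the fat values of Thbs1 and Thbs2 was not tested.

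In tumours the fibroblast markers were positive in 14 of 15, with a median of 1.05 and sums of 1816 to 2758 CPM in knockout, against 994 to 1964 CPM in wild type. Endothelial markers were positive in 10 of 10, with sums of 206 to 396 CPM in knockout, against 86.1 to 171 CPM in wild type. Macrophage markers were positive in 11 of 11, with sums of 809, 2645 and 495 CPM in knockout 1 to 3, against 306 to 331 CPM in wild type. Knockout 2, the highest tumour for 9 of the 10 matrix genes, was also the highest for the fibroblast, endothelial and macrophage sums. Cell cycle markers were negative in 10 of 10, with sums of 127 to 484 CPM in knockout, against 1063 to 2942 CPM in wild type. The part of stromal and dividing cells in the tumour values of the matrix genes was not tested.

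**Figure D5:**
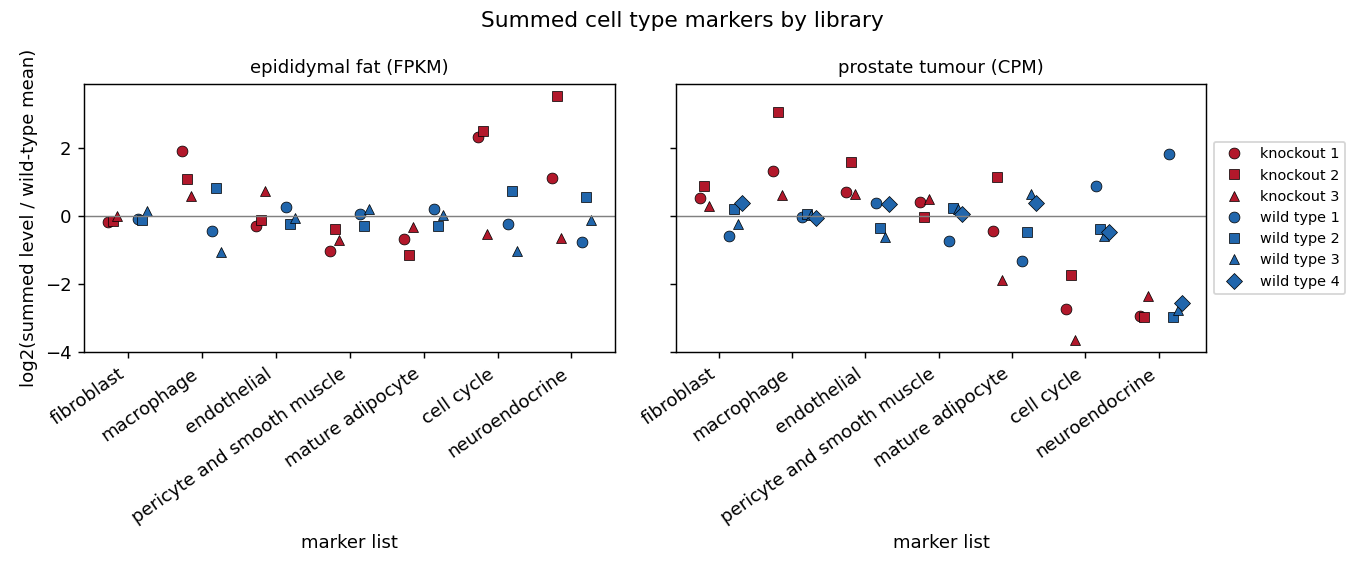
Summed level of each marker list per library, as log2 of the sum over its wild-type mean in fat (left, FPKM) and tumours (right, CPM), with knockout in red left of wild type in blue. Fibroblast sums overlap in fat, macrophage and endothelial sums of all 3 knockout tumours lie above all wild-type tumours, and wild-type tumour 1 stands apart for neuroendocrine markers at 1362 CPM.

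The genes whose pattern over the libraries was most like that of Thbs2 were sought among genes averaging 5 FPKM or CPM or more. Over the 6 fat libraries they were Chn2, N4bp1, Cdkn1b, Slc43a2 and St3gal5, with Pearson r between 0.98 and 0.99 on log2 values. Over the 7 tumour libraries they were Angptl4, Colec12, Calcrl, Epha2 and Nfatc4, with r between 0.97 and 0.99. The genes of these lists differ between the tissues. With so few libraries, which also share the genotype split, 2.14% of 9302 fat genes and 1.23% of 12000 tumour genes had an r above 0.9, so these values describe the ranking and no more. For the mean profile of the 10 genes in tumours the nearest genes were St6gal1, Tlr13, Rcsd1, Klhl6 and Sfrp1 (r of 0.99 for each).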

How the data were processed

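RNA was sequenced from epididymal fat (3 knockout and 3 wild-type libraries) and from TRAMP prostate tumours (3 knockout and 4 wild-type libraries). Per the labels' protocols, polyadenylated RNA was selected, and a strand-marking kit and single-end sequencing were used. Of tools and builds, STAR, DESeq2 and mm10 stand in the submitters' processing notes, with no version or role; for the read counter and the annotation used, the sources used here give no name.

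Tumour values, as the authors deposited them, are raw counts: whole numbers whose totals differ between libraries. The deposited fat table names no unit; its values are not whole and their sums differ between libraries, and they were read as FPKM as the authors scaled them. Neither can show a change in the RNA content of a cell. Spreadsheet conversion had turned 27 fat and 13 tumour symbols into dates or numbers; they stayed in the fits and are not named.

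Genes that averaged 1 FPKM or more in fat were fitted by limma-trend (3.58.1, R 4.3.3) on log2(FPKM + 1), so fat fold changes understate those of low genes. Tumours were tested with edgeR 4.0.16 (quasi-likelihood test after TMM scaling and filterByExpr at a count of 10); DESeq2 1.42.0 and voom served as alternatives. The SE of a tumour fold change was taken as its size over the root of edgeR's F. The tumour minus fat difference was fitted with limma on log2(FPKM + 1) and log2(CPM + 1) for genes tested in both tables. Tests were two-sided, with Benjamini-Hochberg adjustment over every gene tested and calls at an adjusted p under 0.05. The fits were tested on simulated data with known changes. Whole reads behind low fat values were recovered from the steps between libraries, within 0.05 of a whole number; the true reads can be a multiple. Read floors cover counting error only, while SEs cover the spread between libraries.

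The members and lists were chosen with earlier results of these data known. All members are named; from each list up to 3 genes with the smallest p that averaged 5 FPKM or CPM or more could be named, and a part of these is given. Gene positions and lengths are from GENCODE M21, which is on the same assembly as mm10. Alternatives covered pseudocount, filter, scaling, test, replicate block and each library left out. The kit marks strand, but whether counting used it is not stated, so overlapping genes are uncertain. The genes nearest to the mean profile in fat are not reported here.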

Additional observations from a re-analysis of the deposited data

Results flagged for a closer look

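Thbs4 stood out in a single wild-type tumour. Wild type 1 had 88.5 CPM, against 0.495 to 1.21 CPM in the other 3 wild-type tumours, a gap of 0.99 of the group's whole range which is past Dixon's 95% critical value for 4 samples. Tnc stood out in wild-type tumour 4, at 48.4 CPM against 7.93 to 10.7 CPM in the other 3, a gap of 0.93 of the range. The 10 genes were examined in this 1 group of 4 libraries. Chance alone marks about 1 in 20 such groups where values are normally distributed, which CPM values need not be. The cause of either value was not tested.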

How the results depend on the processing

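Of the fat fold changes of single members under all alternatives, 114 kept their direction without being called and 11 turned; in tumours 143 kept it without being called, 3 turned, and the 4 called by DESeq2 kept theirs. Thbs1, Thbs2, Postn and Bgn in fat, and all members but Thbs4 in tumours, were positive in every alternative run. The values that turned outside the fits with 1 library left out were Dcn in fat (-0.033 when rescaled to the TPM scale, which moved the median of all genes by -0.10), Lum (0.088) and Thbs3 (-0.098) in fat without both libraries numbered 2, and Thbs4 in tumours (0.82 with voom and 0.68 with the replicate block). With 1 library left out, fat values ran from -0.22 to 0.49 for Dcn, -0.57 to 0.25 for Lum, -0.11 to 0.64 for Thbs3 and -1.12 to 0.35 for Tnc, and Thbs4 in tumours from -2.48 to 2.69. Members called stayed at 0 in every fat and difference fit, and in every tumour fit other than DESeq2, which called 4. Over all genes, limma called 1 in fat, 10 on the TPM scale, 5 without both libraries numbered 2 and 2 to 4 with 1 library left out. In tumours edgeR called 0 and DESeq2 780. For the tumour minus fat difference limma called 0, 3 with the replicate block and 0 to 221 with 1 library left out (221 without fat knockout 3, 34 without tumour knockout 2). The replicate block left the counts at 1 in fat and 0 in tumours. Deviations of knockout and wild-type libraries with the same number had correlations of -0.05, 0.15 and 0.15 in fat for numbers 1 to 3. In tumours they were 0.16, 0.08 and 0.32. With so few libraries these values cannot tell whether libraries with the same number are paired. The cause of the shifts between settings was not tested. Few reads limit Thbs4 in fat, and Tnc is limited there by its spread between libraries, from 0.397 to 9.63 FPKM within knockout. The absolute depth of the fat libraries is not known.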
